A study of Mus musculus with 10 samples.

Results

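Surfactant and lamellar body genes, 10 in all, were followed through labelled alveolar type 2 (AT2) cells of the mouse lung: Sftpc, Sftpb, Sftpa1, Sftpd, Abca3, Lamp3, Napsa, Slc34a2, Lpcat1 and Ctsh. They were matched by symbol, and all 10 were found once each among the 31053 genes of the deposited matrices. Each had UMIs in the alveolar cells of all 10 libraries and passed the filter on low counts in every fit.

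The cells were sorted from distal lung as EpCAM+RFP+ or EpCAM+YFP+ cells. All groups carried Sftpc-CreERT2, a tamoxifen-dependent Cre placed under control of Sftpc, and received 3 doses of tamoxifen of 0.2 mg per gram body weight. Mice were adults of both sexes, 8 weeks old at the start of experiments. Sftpc-CreERT2;R26R-Confetti mice gave 1 RFP+ and 1 YFP+ library, both wildtype, which the study's methods place 2 weeks after induction. Sftpc-CreERT2;Red2Kras mice gave 2 RFP+ and 2 YFP+ libraries at 4 days and again at 2 weeks. In that line the RFP+ cells are mutant, while YFP+ cells from those lungs are wildtype. At least 2 lungs were pooled in each sample, so a library is not 1 animal. The 4 days mice were collected before tamoxifen had washed out. Because Sftpc drives the Cre that labelled the cells, every labelled cell descends from one in which Sftpc was active, and no group here lacks that allele.

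Surfactant is the lipid and protein film that keeps alveoli open at low lung volume. AT2 cells make it, store it in lamellar bodies, which are lysosome-related organelles, and secrete it into the airspace. Sftpc and Sftpb encode small hydrophobic proteins that spread the lipid film, and both are made as proproteins cut by proteases such as those encoded by Napsa and Ctsh. Sftpa1 and Sftpd encode collectins, secreted lectins of innate defence. Abca3 encodes the transporter that loads phospholipid into lamellar bodies, Lamp3 a protein of their limiting membrane, Lpcat1 an acyltransferase that makes dipalmitoyl phosphatidylcholine, and Slc34a2 the apical sodium-phosphate cotransporter of AT2 cells.

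The positions below are GENCODE M21 gene spans on GRCm38. Sftpc lies on chromosome 14 from 70520949 to 70524081 on the minus strand. Both collectin genes lie on chromosome 14 as well, Sftpa1 from 41131782 to 41136452 on the plus strand and Sftpd from 41172214 to 41185149 on the minus strand, with 35761 bases between them. Sftpb spans 72304610 to 72314371 on chromosome 6, Abca3 24351950 to 24410201 on chromosome 17, Lamp3 19653378 to 19706375 on chromosome 16 (minus strand) and Lpcat1 73467197 to 73516422 on chromosome 13. Napsa spans 44572380 to 44586862 on chromosome 7, Slc34a2 53038081 to 53071664 on chromosome 5 and Ctsh 90054152 to 90076089 on chromosome 9. Abca3, Napsa and Slc34a2 each overlap at least 1 gene of the opposite strand.

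Promoters are shown because several of these genes varied together across libraries. RefSeq promoter sequences (GRCm38.p6), from 250 bases before to 50 bases after the annotated start, matched 6 of the 10 genes: Sftpb, Sftpa1, Abca3, Lamp3, Slc34a2 and Lpcat1. Sftpb, Sftpa1 and Slc34a2, as examples with matches, and Abca3, whose level passed a test below, are printed 5′ to 3′ on the strand of the gene. Capitals mark letters that match one of 6 motifs, searched on both strands: CAAGTG and CTCAAG (cores of NKX2-1 sites), TNTTTAC (forkhead), TTGCNNAA (C/EBP), AGATAA (sites of GATA factors) and, for a TATA box, TATAAA.
Sftpb (chr6:72304360-72304659, plus strand): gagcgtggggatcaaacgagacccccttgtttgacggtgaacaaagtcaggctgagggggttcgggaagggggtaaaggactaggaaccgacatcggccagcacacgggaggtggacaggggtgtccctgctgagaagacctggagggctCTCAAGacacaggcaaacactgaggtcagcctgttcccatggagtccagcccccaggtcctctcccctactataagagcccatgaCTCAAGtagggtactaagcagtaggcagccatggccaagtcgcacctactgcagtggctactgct
Sftpa1 (chr14:41131538-41131837, plus strand): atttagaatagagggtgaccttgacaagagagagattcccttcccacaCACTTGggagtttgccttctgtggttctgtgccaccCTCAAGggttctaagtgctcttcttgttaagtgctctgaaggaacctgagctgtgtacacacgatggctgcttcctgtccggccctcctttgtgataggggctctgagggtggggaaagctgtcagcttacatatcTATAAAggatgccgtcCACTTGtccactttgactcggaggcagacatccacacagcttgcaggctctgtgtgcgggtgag
Slc34a2 (chr5:53049103-53049402, plus strand): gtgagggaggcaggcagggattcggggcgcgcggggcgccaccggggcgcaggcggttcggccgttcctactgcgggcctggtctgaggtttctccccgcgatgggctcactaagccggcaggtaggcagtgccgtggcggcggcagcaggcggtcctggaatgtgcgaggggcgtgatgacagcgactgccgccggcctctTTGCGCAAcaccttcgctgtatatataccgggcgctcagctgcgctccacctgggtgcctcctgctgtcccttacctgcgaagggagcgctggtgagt
Abca3 (chr17:24351773-24352072, plus strand): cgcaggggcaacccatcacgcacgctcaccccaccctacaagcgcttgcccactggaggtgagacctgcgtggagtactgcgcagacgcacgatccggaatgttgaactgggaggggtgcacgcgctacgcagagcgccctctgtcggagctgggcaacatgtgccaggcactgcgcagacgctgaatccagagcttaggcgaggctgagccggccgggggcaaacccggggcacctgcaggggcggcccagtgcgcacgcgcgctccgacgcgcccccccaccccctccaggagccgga

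Sftpb held CTCAAG at -100 and -15 relative to the start. Sftpa1 held CAAGTG on the reverse strand at -202 and -14, CTCAAG at -166 and TATAAA at -30. Slc34a2 held TTGCGCAA at -48, in a window that lies inside its GENCODE span. Lamp3, not printed, held TGTTTAC at -92, and Abca3 and Lpcat1 held none of the 6 motifs. Of 32851 RefSeq promoters of the same length, 26.4% held CAAGTG or CTCAAG, 15.9% CTCAAG and 13.6% CAAGTG (with or without the other), 13.6% TATAAA, 12.4% TNTTTAC, 11.2% AGATAA and 10.8% TTGCNNAA. Such matches are a description of the letters in these windows.

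Of 42012 barcodes, 32698 passed the cell filters and 29581 were kept as alveolar cells, 1009 to 4223 per library. Total UMIs per library ran from 10742481 to 79927159 over all barcodes and from 7344250 to 71507000 in alveolar cells, and median UMIs per cell were 15812 and 13385 in the 2 weeks RFP libraries against 3252 to 6714 in the other 8. Cells of immune, endothelial, mesenchymal or ciliated clusters were discarded, 3.2% to 42.2% of cells per library, most in 2 weeks YFP replicate 2. Libraries shared 0.575% to 1.28% of their barcodes with another library. All 8 AT2 markers that are not among the 10 genes had UMIs in every alveolar library sum. The 6 immune markers summed to 1.8 to 11.6 CPM there. The libraries of 4 days RFP stood apart from each other, as their values show, so comparisons that use that group are also given without one or the other.

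The 10 genes together gave 9.86% to 21.2% of the UMIs of alveolar cells, and Sftpc alone 6.54% to 16.2%. Library sums were scaled with TMM factors and are given as CPM. A library sum cannot tell fewer cells with a gene's RNA from less RNA per cell. The single-cell values further on bear on that distinction.

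Sftpc was measured at 65125 and 67488 CPM in the 2 weeks RFP libraries (66307 ± 1671, SD, n = 2). The 2 weeks YFP libraries of the same lungs held 130531 and 191125 CPM (160828 ± 42846, n = 2). At 4 days the RFP libraries held 129727 and 63055 CPM and the YFP libraries 150767 and 157653 CPM. Confetti RFP and Confetti YFP held 118116 and 98426 CPM. Each of the 4 RFP libraries was thus below each of the 4 YFP libraries of Red2Kras mice, but 4 days RFP replicate 1 came close to the lowest of these.

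Sftpb, the second hydrophobic surfactant protein gene, varied less. Its RFP levels were 6308 and 4290 CPM at 4 days and 5757 and 6787 CPM at 2 weeks, against 8161 and 7006 CPM and then 6343 and 8196 CPM in YFP libraries. The 2 weeks groups overlapped, and the Confetti libraries, at 7517 and 7370 CPM, lay within the YFP range.

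The collectin genes differed from each other. Sftpa1 was at 22877 and 9854 CPM in 2 weeks RFP and at 21241 CPM in 4 days RFP replicate 2, while the other 7 libraries lay between 26591 and 39852 CPM. Sftpd ranged from 2435 CPM in 4 days RFP replicate 2 to 6228 CPM in 2 weeks YFP replicate 1, and its 2 weeks RFP values of 5273 and 3735 CPM overlapped both the YFP and the Confetti values.

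Abca3, the lamellar body lipid transporter gene, had its lowest levels in RFP cells: 228 and 216 CPM at 2 weeks (222 ± 8.67, n = 2) and 424 and 243 CPM at 4 days. YFP libraries held 446 and 468 CPM at 2 weeks (457 ± 15.9) and 561 and 537 CPM at 4 days (549 ± 17.3). The Confetti libraries, at 582 and 619 CPM, were the highest of all 10. The order of group means was therefore Confetti, 4 days YFP, 2 weeks YFP, 4 days RFP and 2 weeks RFP, and the libraries of neighbouring groups did not overlap, although only 2 weeks RFP against Confetti passed the test below.

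Slc34a2 was at 1399 and 1218 CPM in 2 weeks RFP and at 2105 and 1522 CPM in 4 days RFP. It was at 2323 and 2689 CPM in 2 weeks YFP, 2777 and 3425 CPM in 4 days YFP, and 2724 and 2546 CPM in Confetti cells. No RFP library of Red2Kras mice reached the lowest YFP library. Lamp3 was at 701 and 347 CPM in 2 weeks RFP and 1036 and 547 CPM in 4 days RFP, against 845 to 1265 CPM in the other 6 libraries. Lpcat1 was at 433 to 699 CPM in the 4 RFP libraries of Red2Kras mice and at 734 to 902 CPM in the other 6.

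The protease genes went different ways. Napsa, an aspartic protease gene, was at 1599 to 3104 CPM in Red2Kras RFP libraries and at 2575 to 3683 CPM in YFP libraries. Ctsh, the cathepsin H gene, was at its highest in 2 weeks RFP, at 1510 and 2815 CPM, and at its lowest in 4 days RFP replicate 2, at 643 CPM. In the other 7 libraries it ran from 717 to 1403 CPM, so 2 weeks RFP did not overlap 2 weeks YFP (891 and 1403 CPM).

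**Figure D1:**
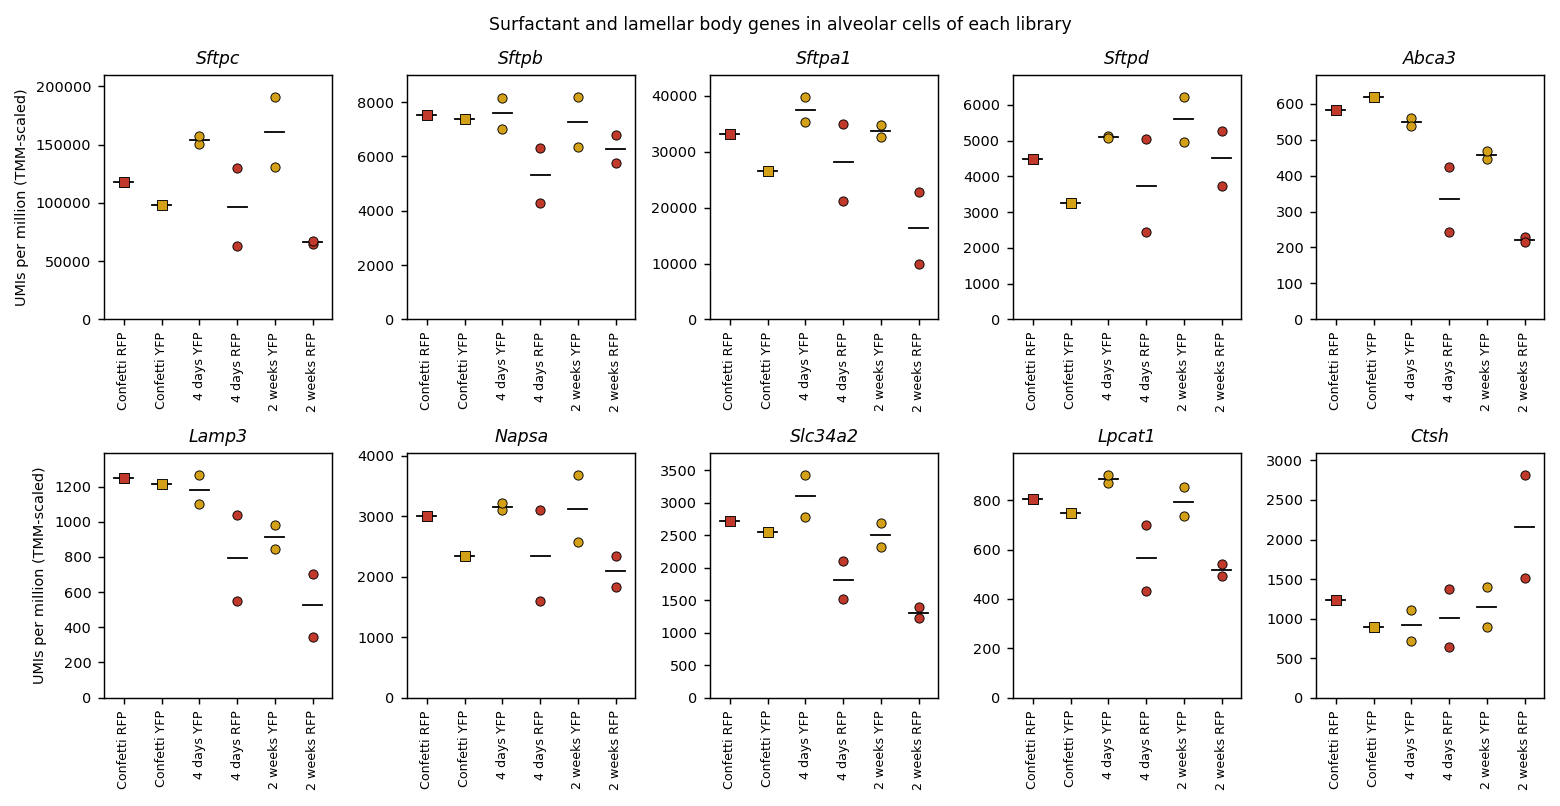
Level of each of the 10 genes in every library, in TMM-scaled CPM (vertical axes, 1 panel per gene), for the 6 groups on the horizontal axis. Points are libraries. Sftpc, Abca3, Slc34a2 and Lpcat1 have all 4 Red2Kras RFP points below all 4 YFP points, and Ctsh has its highest points in 2 weeks RFP.

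The design asks how mutant RFP+ cells differ from wildtype YFP+ cells of the same lungs. Sftpc, Abca3, Slc34a2 and Lpcat1 were lower in every RFP than in every YFP library, 4 of 10 genes, where 4.71% of 13782 genes did so in that direction and 8.98% were apart in either. In edgeR's quasi-likelihood test with time point as a term, the log2 fold change of Sftpc was -0.995, with an SE of 0.32 (adjusted p = 0.126). Abca3 had -0.90 ± 0.22 (adjusted p = 0.0883), Slc34a2 -0.87 ± 0.21 (0.0883) and Lpcat1 -0.65 ± 0.21 (0.126). The other values were -0.71 ± 0.29 for Lamp3, -0.75 ± 0.33 for Sftpa1, -0.52 ± 0.26 for Napsa, -0.40 ± 0.28 for Sftpd, -0.38 ± 0.23 for Sftpb and 0.52 ± 0.35 for Ctsh (adjusted p between 0.202 and 0.437). The median over the 10 genes was -0.68, beside -0.02 over all 13206 genes tested.

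None of the 10 genes passed an adjusted p of 0.05 in that test, and none of the 13206 genes did (0%). At an unadjusted p under 0.05, 2852 genes (21.6%) passed, 9.84% of all genes with lower values, and so did 5 of the 10 genes, all lower (Sftpc, Abca3, Slc34a2, Lpcat1 and Lamp3). DESeq2 called 1285 genes, among them Slc34a2, Abca3, Sftpc and Lpcat1. RFP and YFP libraries of the same time and number deviated together, a pairing read from these same counts and not from a label. With that number as a block, edgeR's quasi-likelihood test called 2252 genes and 4 of the 10: Abca3 (-0.93, adjusted p = 0.0135), Slc34a2 (-0.88, 0.0243), Lamp3 (-0.79, 0.0359) and Lpcat1 (-0.67, 0.0374), with Sftpc at an adjusted p of 0.0629. Without 4 days RFP replicate 1 and without the block, edgeR's quasi-likelihood test called Abca3 (adjusted p = 0.0166), Slc34a2 (0.037) and Sftpc (0.0463), 3 of the 10 beside 1445 of 13690 genes. Without 4 days RFP replicate 2 in its place the same test called 7 of 13649 genes and none of the 10, with Abca3 at -0.78 (adjusted p = 0.182), Slc34a2 at -0.80 (0.185) and Sftpc at -0.86 (0.251), and no member was called without any other single library.

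At 4 days, 8 of the 10 genes were lower in both RFP than in both YFP libraries, beside 15.9% of all genes in that direction and 31.7% in either, and Napsa and Ctsh overlapped. edgeR's quasi-likelihood test called none of the 10 and none of 13782 genes (0%), with 776 genes (5.63%) and 1 of the 10 at an unadjusted p under 0.05. Slc34a2 had the smallest unadjusted p of the 10 (log2 fold change -0.77 ± 0.32, adjusted p = 0.847) and Sftpc was at -0.68 ± 0.45 (0.939). Without 4 days RFP replicate 1 Sftpc was at -1.29, Slc34a2 at -1.02 and Ctsh at -0.50, and without replicate 2 they were at -0.25, -0.56 and 0.60, with none called. DESeq2 called 95 genes and the fit with the block 140, none of the 10 in either.

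At 2 weeks, Sftpc, Sftpa1, Abca3, Lamp3, Napsa, Slc34a2 and Lpcat1 were lower in both RFP libraries, 7 of 10 genes beside 25.1% of all genes in that direction and 53.4% in either, and Ctsh was higher. The log2 fold changes were -1.28 ± 0.46 for Sftpc (adjusted p = 0.252), -1.04 ± 0.32 for Abca3 (0.218), -1.04 ± 0.48 for Sftpa1 (0.320), -0.94 ± 0.32 for Slc34a2 (0.242) and 0.92 ± 0.50 for Ctsh (0.375), in edgeR's quasi-likelihood test. Without 2 weeks RFP replicate 1 Sftpa1 was at -1.79 and Ctsh at 1.28, and without replicate 2 at -0.59 and 0.37, while Abca3 stayed at -1.10 and -1.03. The test called 1 of 13782 genes (0.00726%), which was not one of the 10. At an unadjusted p under 0.05, 16.4% of genes passed and 3 of the 10 did (Sftpc, Abca3 and Slc34a2). With the block, Abca3 was called (-1.07, adjusted p = 0.0270), 1 of the 10 beside 2175 of 13206 genes, and DESeq2 called Sftpc, Abca3 and Slc34a2 beside 462 of 13782 genes.

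Effects at 2 weeks and at 4 days were then compared directly. The interaction of label and time point was called for none of the 10 genes and for none of 13782 genes (0%) by edgeR's quasi-likelihood test or DESeq2, with 215 genes (1.56%) and none of the 10 at an unadjusted p under 0.05 in edgeR. Its largest values were 0.77 ± 0.70 for Ctsh, -0.62 ± 0.67 for Sftpa1 and -0.60 ± 0.64 for Sftpc. Without 4 days RFP replicate 1 these were 1.42, -0.22 and 0.01, and without replicate 2 they were 0.32, -0.94 and -1.03, with none called. Between 4 days and 2 weeks within RFP cells, none of the 10 genes was called and no gene was (0%, 1532 genes or 11.1% at an unadjusted p under 0.05, 113 called by DESeq2). Ctsh was at 1.096 ± 0.50 (adjusted p = 0.460), with 643 and 1379 CPM at 4 days against 1510 and 2815 CPM at 2 weeks. It was at 1.75 without 4 days RFP replicate 1, 0.65 without 4 days RFP replicate 2, 1.47 without 2 weeks RFP replicate 1 and 0.55 without 2 weeks RFP replicate 2. Within YFP cells none of the 10 and no gene was called either (0%, 229 or 1.66% at an unadjusted p under 0.05, 16 called by DESeq2), and the 10 values lay between -0.37 (Lamp3) and 0.33 (Ctsh).

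The Confetti libraries, wildtype cells from mice of the other line, were set against each Red2Kras group by edgeR's quasi-likelihood test, so these comparisons share their 2 controls. In 2 weeks RFP against Confetti, Abca3 fell by 1.43 ± 0.33 on the log2 scale (adjusted p = 0.0472), 1 of the 10 genes, beside 731 of 13782 genes (5.3%). At an unadjusted p under 0.05, 31.1% of genes passed and 3 of the 10 did. That call held in 9 of 20 alternative settings, with adjusted p from 0.000401 to 0.249, and was lost under all 3 looser choices of cells and without any single 2 weeks RFP, 2 weeks YFP, 4 days YFP or Confetti library. Lamp3 had -1.23 ± 0.44 (adjusted p = 0.107), Slc34a2 -1.01 ± 0.32 (0.0846), Sftpa1 -0.86 ± 0.48 (0.249), Sftpc -0.70 ± 0.45 (0.315) and Ctsh 1.04 ± 0.50 (0.192). Sftpd, at 0.24 ± 0.41, changed sign without 2 weeks RFP replicate 1 and without Confetti YFP. Over the 20 alternatives the log2 fold change of Abca3 ran from -1.52 to -1.37 and that of Lamp3 from -1.85 to -0.84. Sftpa1 ran from -1.61 to -0.41 and Ctsh from 0.49 to 1.40. Of the 10 genes 7 were lower and Ctsh was higher with no overlap, beside 36.3% of all genes lower and 73.7% apart in either direction.

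Wildtype YFP cells were compared with Confetti in the same way. For 2 weeks YFP none of the 10 genes was called (6 of 13782 genes were, 0.0435%, and 5.65% passed at an unadjusted p under 0.05, with none of the 10), and the 10 values ran from -0.43 ± 0.43 (Lamp3) to 0.58 ± 0.45 (Sftpc). For 4 days YFP none was called (4 of 13782 genes, 0.029%, and 1.83% at an unadjusted p under 0.05, with none of the 10), with values from -0.20 ± 0.49 (Ctsh) to 0.52 ± 0.45 (Sftpc). For 4 days RFP none of the 10 and no gene was called (0%, 1208 or 8.77% at an unadjusted p under 0.05, 256 called by DESeq2), and Abca3 had -0.85 ± 0.32 (unadjusted p = 0.0300, adjusted p = 0.543). Without 4 days RFP replicate 1 Abca3 was at -1.30 and Sftpc at -0.77, and without replicate 2 they were at -0.50 and 0.27. The 4 days groups differ from Confetti in time after induction as well as in genotype, and these cannot be told apart.

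**Figure D2:**
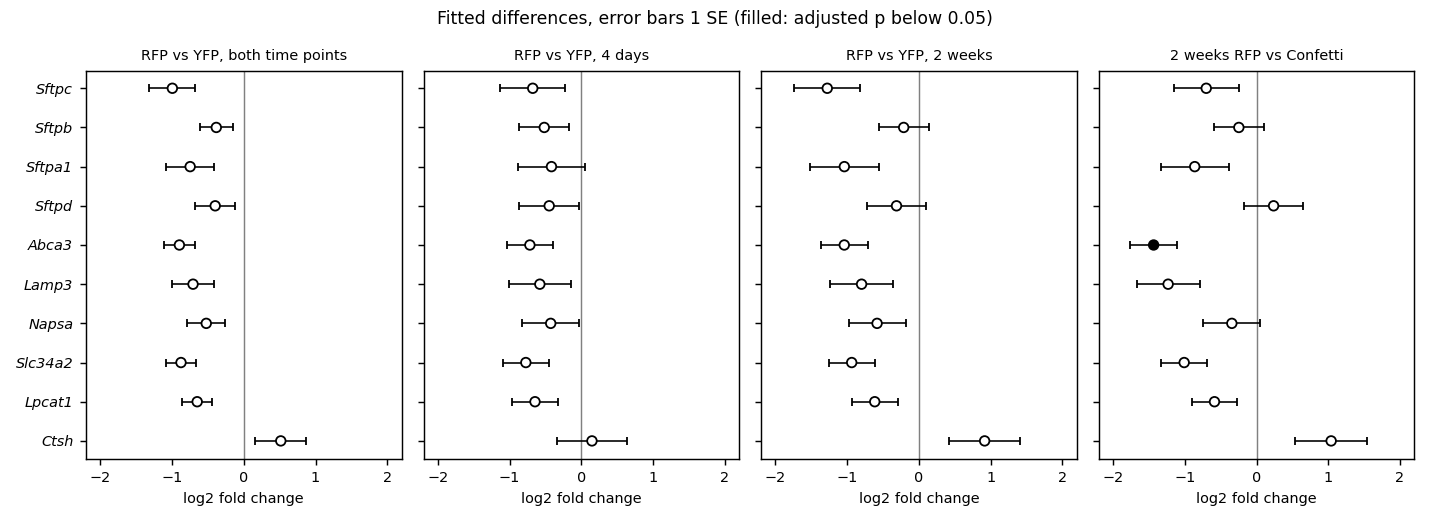
Log2 fold change (horizontal axis) of each gene in 4 comparisons of library sums, with bars of ±1 SE from edgeR's quasi-likelihood fit. Filled points have an adjusted p below 0.05. The only filled point is Abca3 in 2 weeks RFP against Confetti, at -1.43, and Ctsh is the only gene above 0 in RFP against YFP over both time points.

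Single cells were then used to ask whether the library sums reflect all cells or some. In each cell the share of Sftpc among non-mitochondrial UMIs was taken. Its median was 12.9% in Confetti RFP and 11.7% in Confetti YFP cells. At 4 days it was 14.6% and 8.27% in the RFP libraries against 16.2% and 14.9% in the YFP libraries. At 2 weeks it was 8.81% and 7.46% against 14.1% and 18.4%. The RFP medians averaged 9.79% ± 3.27 (SD, n = 4) and the YFP medians 15.9% ± 1.87 (n = 4), and RFP was lower in 15 of 16 pairs of libraries. The difference of -6.11 percentage points had p = 0.0571 in a two-sided exact permutation test, whose smallest possible p is 0.0286. With RFP and YFP of the same number paired, an exact sign-flip test gave p = 0.125, the smallest it can give.

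The distribution within libraries had a separate low end. Cells with under 1% Sftpc, a limit chosen after seeing the data, were 0.71% of Confetti RFP (27 of 3802 cells) and 0.785% of Confetti YFP cells (31 of 3950). They were 1.78% and 35.4% of the 4 days RFP libraries (66 and 506 cells), and 22.7% and 29.5% of the 2 weeks RFP libraries (919 and 818 cells). YFP libraries held 0.71% and 0.92% at 4 days and 1.87% and 3.17% at 2 weeks. Of the 4 RFP libraries 3 were thus above 20% and no other library exceeded 3.17%, with 4 days RFP replicate 1 on the side of the wildtype libraries.

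RFP libraries averaged 22.3% ± 14.6 of cells under 1% Sftpc and YFP libraries 1.67% ± 1.12 (n = 4 each). RFP was higher than YFP of the same time and number in all 4 pairs, and an exact sign-flip test of the pairs gave p = 0.125, the smallest it can give. The difference of 20.7 points had p = 0.0857 when libraries were left unpaired (exact permutation test, two-sided), and without 4 days RFP replicate 1 it was 27.5 points (exact permutation p = 0.0571). Without 4 days RFP replicate 2 it was 16.3 points, and leaving out each library in turn gave exact permutation p from 0.0571 to 0.171. Few cells lay near the limit: those with 0.5% to 1% were at most 2.16% of a library and those with 1% to 2% at most 2.88%. Low cells were not shallow. Their median was 18575 UMIs against 15410 in the other cells of 2 weeks RFP replicate 1, 12324 against 13785 in replicate 2, and 5486 against 5085 in 4 days RFP replicate 2. In the same order, their median mitochondrial share was lower, at 2.09% against 2.52%, 1.65% against 2.13% and 0.861% against 1.65%. In the remaining cells, the median Sftpc share averaged 11.8% ± 1.99 in RFP and 15.98% ± 1.92 in YFP libraries (exact permutation p = 0.0571).

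**Figure D3:**
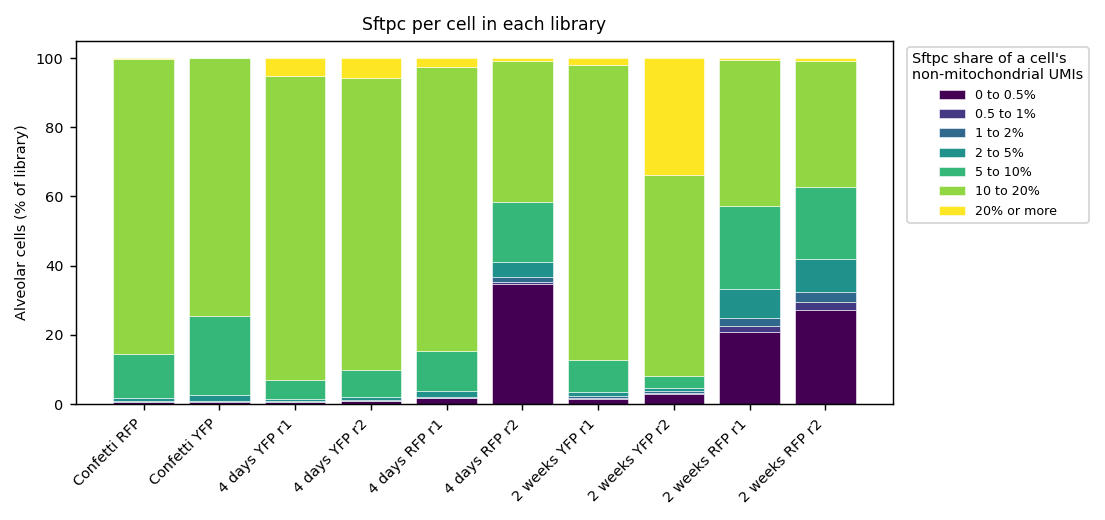
Stacked bars of the percent of alveolar cells in each library (vertical axis) by the share of a cell's UMIs that came from Sftpc. The lowest class, under 0.5%, is 34.7% of 4 days RFP replicate 2 and 20.8% and 27.3% of the 2 weeks RFP libraries. It is at most 2.97% elsewhere.

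The other 9 genes were then measured in the cells chosen for low Sftpc. Their sums are given in CPM of the UMIs of those cells, and as a percent of the value in the other alveolar cells of the same library. In 4 days RFP replicate 2 the median of the 9 genes was 5.92%, from 2.49% (Slc34a2) to 31.4% (Ctsh). In 2 weeks RFP replicate 1 it was 18.2%, from 12.2% (Sftpa1) to 76.8% (Ctsh), and in replicate 2 it was 11.3%, from 3.88% (Slc34a2) to 69.6% (Ctsh). Low Sftpc therefore went with low levels of 8 other genes in these libraries, and Ctsh had the highest percent.

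Sftpb kept more of its level than most. It was at 49.0% in 2 weeks RFP replicate 1 (3503 against 7152 CPM) and at 39.8% in replicate 2 (3383 against 8492), but at 11.3% in 4 days RFP replicate 2 (765 against 6783). Slc34a2 was at 243 against 1952 and 67.7 against 1742 CPM in the 2 weeks RFP libraries. Ctsh was at 1329 against 1732 and 2221 against 3191 there. In all 10 libraries Ctsh was the gene with the highest percent.

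In the other 7 libraries low cells were few. The median of the 9 genes was 81.0% and 72.4% in the Confetti libraries, 41.9% and 50.8% in 4 days YFP, 39.5% and 18.3% in 2 weeks YFP, and 36.9% in 4 days RFP replicate 1. The value of 2 weeks YFP replicate 2 was thus near that of 2 weeks RFP replicate 1, and the other 6 were higher. These rest on 12 to 79 cells per library. The 6 immune markers summed to 0 in the low cells of 4 of these 7 libraries but to 414, 78.9 and 45.7 CPM in 4 days YFP replicate 2 and 2 weeks YFP replicates 1 and 2, against 4.37 to 9.41 in the other cells of those 3. In the low cells of 4 days RFP replicate 2 and of both 2 weeks RFP libraries the immune markers summed to 15.8, 2.36 and 17.6 CPM, against 6.49, 4.93 and 8.38 in the other cells.

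**Figure D4:**
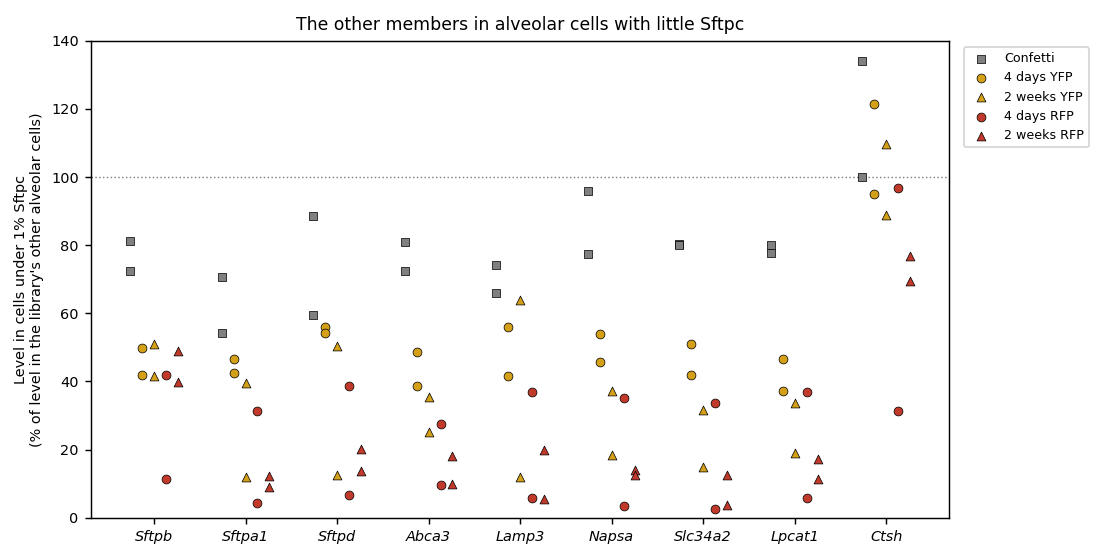
Level of the other 9 genes (horizontal axis) in cells under 1% Sftpc, as a percent of the level in the library's other alveolar cells (vertical axis). Each point is a library, with colour and shape by group. The medians over genes, not drawn, are lowest in 4 days RFP replicate 2 (5.92%) and the 2 weeks RFP libraries (18.2% and 11.3%). Ctsh is the highest gene in every library.

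Markers outside the 10 genes were read in the same cells. The 8 AT2 markers summed to 1381 CPM in the low cells of 4 days RFP replicate 2 against 48174 in its other cells, and to 5437 against 50034 and 1395 against 28872 in the 2 weeks RFP libraries. The 7 markers of DATPs, damage-associated transient progenitors that arise from AT2 cells after injury, summed to 4768 against 976, 7135 against 1715 and 8761 against 2294. They were higher in the low cells of the other 7 libraries as well, from 1661 against 644 in Confetti YFP to 5046 against 936 in 4 days RFP replicate 1. The 9 AT1 markers, of the flat cells of gas exchange, were lower in the low cells of all 3 (291 against 1121, 918 against 1551 and 2566 against 2977). In the other 7 libraries they went both ways, from 3604 against 1573 in 4 days YFP replicate 1 to 1227 against 2264 in 2 weeks YFP replicate 2.

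RNA released from broken cells can give a UMI in a cell that does not make it, so immune cells of the same library served as a background. Immune cells that were themselves under 1% Sftpc were compared with low alveolar cells, since free RNA gives all genes of 1 source in 1 ratio. Sftpb was 88.1, 37.6 and 46.9 times higher in the low alveolar cells of 4 days RFP replicate 2 and of 2 weeks RFP replicates 1 and 2. Sftpa1 was 41.1, 10.4 and 31.6 times higher, Sftpd 40.6, 26.2 and 40.4 times and Slc34a2 21.9, 11.4 and 9.12 times. Abca3 was 2.83, 2.05 and 1.46 times higher, nearer to the immune level. No such reading can be made for Sftpc, since both sets of cells were chosen for a low share of it. Ctsh was 1.33, 3.17 and 5.85 times higher and Lpcat1 1.45, 4.52 and 7.90 times. In 4 days RFP replicate 2 the Ctsh of low cells, 286 CPM, was thus near the 215 CPM of immune cells. Napsa was also present in immune cells, and its ratios of low alveolar to immune cells were 0.189, 1.25 and 2.84. Lamp3 was 20.5 and 11.4 times higher in the 2 weeks RFP libraries, and in 4 days RFP replicate 2, with 3 UMIs in immune cells, no ratio is given.

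Detection was compared at equal depth, with each cell thinned to 2000 UMIs. Sftpc had a UMI in 96.2% of 29505 alveolar cells (72.5% to 99.9% by library), beside 42.4% of 2422 immune cells (16.1% to 98.4%). Of these immune cells 720 and 708 came from 2 weeks RFP and YFP replicate 2. In Confetti YFP the Sftpc shares, 99.9% and 98.4%, hardly differed, with means of 229 and 33.2 thinned UMIs per cell. Sftpb was seen in 96.7% beside 12.1% (2.97% to 42.2% by library), Slc34a2 in 89.3% beside 7.43% and Lamp3 in 79.2% (42.7% to 92.4%) beside 5.16%. Abca3 was seen in 56.2% (33.5% to 73.1%) beside 7.23%, and Ctsh in 81.0% (56.7% to 92.5%) beside 41.5%. Alveolar cells had a median of 5565 UMIs and immune cells 7088 before thinning. All 10 genes were above the immune share in all 10 libraries, and without thinning single shares moved by up to 45.0 points (Abca3).

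Most cells held most of the 10 genes at that depth. The median cell had 9 of them, or 8 in 4 days RFP replicate 2 and 2 weeks RFP replicate 2. At least 8 genes were detected in 96.1% and 96.4% of Confetti RFP and YFP cells, in 93.3% and 57.6% of cells of the 4 days RFP libraries, and in 72.9% and 56.0% of 2 weeks RFP cells. Cells with 4 or fewer were 32.8% of 4 days RFP replicate 2 and 13.4% and 20.4% of the 2 weeks RFP libraries, but 0.026% to 1.88% of the other 7. Across cells of a library, Sftpa1 and Sftpd had the highest correlation of any pair (median Spearman rho 0.40 over 10 libraries, 0.31 to 0.80), a description over cells that share a library.

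Alveolar cells were clustered without the 10 genes and without the other lipid and lamellar body genes below among the variable genes. The totals used to scale each cell still included them, so the clusters are not fully independent of their levels. Levels are CPM over the UMIs of a cluster's cells, with no test. The largest cluster was AT2-like (7797 cells, cluster 0), led by AY036118, Scgb1a1 and Cst8. It held Sftpc at 133329, Sftpb at 8506, Abca3 at 691 and Slc34a2 at 3125. A second AT2-like cluster (3855 cells, led by Kcnk2 and Chia1, with a lower AT2 marker score of 0.135 against 0.365) held the same Sftpc level, 133385, but less Abca3 (401) and Slc34a2 (2005).

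Primed AT2-like clusters were named from inflammation-linked AT2 markers such as Lcn2 and Il33. One (4014 cells, led by Apoc1, 58.9% from 4 days YFP replicate 2) held Sftpc at 153257 and Abca3 at 484. The other (3156 cells, led by Hspa1b, 85.6% from 2 weeks YFP replicate 1) held Sftpc at 139545. In that cluster Sftpc was at 139740 in 352 cells of 2 weeks RFP replicate 1 and at 139169 in 2703 cells of 2 weeks YFP replicate 1, with Abca3 at 510 and 470. These levels depended on how finely cells were clustered. At a resolution of 0.4 in place of 0.8, primed AT2-like cells were 1877 in that RFP library, with Sftpc at 103319 and Abca3 at 351, against 138992 and 466 in the YFP library, and in replicate 2 Sftpc was at 71166 in 98 RFP cells against 180093 in 811 YFP cells.

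A further cluster of 1818 cells, led by Pglyrp1 and Dnajb1 and 86.1% from 2 weeks RFP replicate 1, scored higher on the primed AT2 markers than both of these (0.587 against 0.420 and 0.512) but stayed unnamed, since names other than AT2 needed at least 1 marker among the 10 leading genes. It held Sftpc at 96039 (a log2 difference of -0.47 from cluster 0), Abca3 at 320 (-1.11) and Slc34a2 at 2050 (-0.61), with Ctsh at 1703 (0.89). The unnamed clusters led by Fosb (2093 cells) and AW112010 (425 cells) held Sftpc at 112767 and 95531.

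The DATP-like clusters lay far below. The first (1334 cells, led by Procr and F3, 80.3% from 2 weeks RFP replicate 2) held Sftpc at 13049, Sftpa1 at 3305, Abca3 at 53.1, Lamp3 at 95.3 and Slc34a2 at 200. Relative to cluster 0 these are log2 differences of -3.35, -3.32, -3.70, -3.83 and -3.96. The Sftpc sum is not that of its typical cell, since 70.3% of them were under 1% Sftpc and the median share was 0.073%, against 13.4% in cluster 0. Sftpb in the same cells was at 4830, a difference of -0.82, and Ctsh at 2575, a difference of 1.49. The second (899 cells, led by Hmga2 and Ndrg1, 51.5% from 4 days RFP replicate 2) was lower in all 10 genes, with Sftpc at 2315 (-5.85), Sftpb at 667 (-3.67), Lamp3 at 33.1 (-5.35) and Ctsh at 421 (-1.13). At a finer resolution of 1.5, 412 cells of 2 weeks RFP replicate 2 fell in an AT1-like cluster, with Sftpc at 33090, Sftpb at 7549 and Ctsh at 3567. The DATP-like cells of that library then numbered 689 in place of 1097, and their Sftpc was at 6875 in place of 13629, Slc34a2 at 56.1 in place of 190 and Abca3 at 29.7 in place of 50.2. At the resolution of 0.8, these cells with DATP markers did not share 1 pattern, since Sftpb and Ctsh were held in one cluster and not in the other.

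An unnamed cluster of 346 cells led by Gzme and Spp1, 93.6% from 2 weeks RFP replicate 1, had Sftpc at 6343 (-4.39) and Slc34a2 at 226 (-3.79) but Sftpb at 6746 (-0.33) and Ctsh at 2287 (1.32). Of its cells 85.8% were under 1% Sftpc, and the median share was 0.070%. Another unnamed cluster of 1588 cells, led by Meg3 and Dlk1 and 88.9% from 2 weeks RFP replicate 2, held Sftpc at 107189 (-0.31), Sftpb at 8889 (0.06) and Napsa at 3412 (0.15). Its Sftpa1, at 14844 (-1.16), and Lamp3, at 559 (-1.28), were lower and its Ctsh, at 3005 (1.71), was the highest of any cluster. This cluster and the one led by Gzme both scored highest on markers of the study's Cd177+ mixed state (0.86 and 2.09). The cluster led by Meg3 stayed unnamed with 2 of these markers detected where 3 were needed. The cluster led by Gzme had no such marker among its leading genes. Of the 2517 low cells, 37.3% fell in the first DATP-like cluster, 34.8% in the second and 11.8% in the cluster led by Gzme.

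Each of these 4 clusters came mostly from 1 or 2 libraries, so a cluster and a library cannot be told apart there. Where the first DATP-like cluster was seen in both 2 weeks RFP libraries, Sftpb was at 4169 (155 cells) and 5068 (1071 cells) and Sftpc at 8329 and 13967. The second was seen in 4 days RFP replicate 2 and in 2 weeks RFP replicate 1, with Sftpb at 250 (463 cells) and 828 (370 cells) and Ctsh at 153 and 525. The difference in Sftpb between both clusters was present within 2 weeks RFP replicate 1, 4169 against 828.

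The cycling-like clusters (982 and 1274 cells) held Sftpc at 79460 and 74222 and Abca3 at 274 and 246, below cluster 0. Within each of the 5 libraries with at least 50 cells of both states, cycling-like cells held less Sftpc and Abca3 than AT2-like cells, for example 83739 against 123726 and 243 against 623 in Confetti RFP. Sftpd was lower in 4 of these 5 (6470 against 7376 in 2 weeks RFP replicate 1) and higher in 2 weeks YFP replicate 1 (6323 against 4661). Within the cluster led by Pclaf, Sftpc was at 71369 in 2 weeks RFP replicate 1 and at 110760 in 2 weeks YFP replicate 1. In 4 days replicate 2 it was at 66665 in RFP and at 127034 in YFP.

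**Figure D5:**
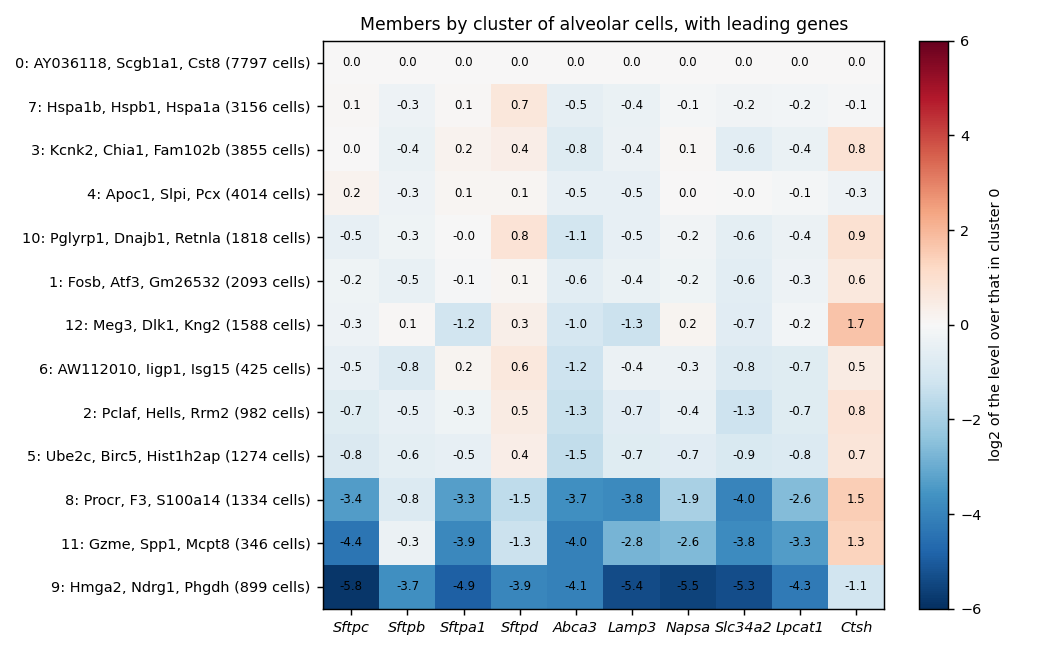
Heat map of the log2 difference of each gene (columns) from cluster 0 in each cluster of alveolar cells (rows), from CPM of each cluster. The DATP-like clusters and the cluster led by Gzme are the low rows, with Sftpc at -3.35, -5.85 and -4.39, and Ctsh is above 0 in 2 of these 3.

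Genes around the 10 in the surfactant pathway, and the further lists below, were counted from lists chosen with earlier results of these data known. Their counts are therefore descriptions and do not test enrichment. Of 21 lipid synthesis genes, none passed the adjusted test in RFP against YFP over both time points, where 14 were lower and none higher at an unadjusted p under 0.05 (median log2 fold change -0.65), beside 9.84% of all genes lower and 21.6% in either direction. Those with the smallest p were Scd1 (-1.44), the stearoyl-CoA desaturase gene, Fasn (-1.22), the fatty acid synthase gene, and Gpam (-2.15), a glycerol-phosphate acyltransferase gene. In 2 weeks RFP against Confetti 4 of the 21 fell and none rose in edgeR's quasi-likelihood test, beside 5.3% of all genes called, among them Acaca (-1.55, adjusted p = 0.0425), the acetyl-CoA carboxylase gene, Acly (-1.53, 0.0439), the ATP citrate lyase gene, and Gpam (-3.34, 0.0467).

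Genes of lamellar bodies, trafficking and surfactant turnover were mixed. Of 25, none passed the adjusted test in RFP against YFP, and 8 were lower and 2 higher at an unadjusted p under 0.05 (median -0.37), beside 9.84% of all genes lower and 21.6% in either direction. Named by smallest p were Ctsl (1.12), a lysosomal cathepsin gene, Npc2 (-0.87), a lysosomal cholesterol-binding protein gene, and Vamp8 (-0.68), a vesicle fusion gene. Against Confetti, Ctsl rose at 2 weeks (2.22, adjusted p = 0.0457 in edgeR's quasi-likelihood test) and none of the 25 fell, 1 of 25 genes called beside 5.3% of all genes.

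Transcription factors and receptors that maintain AT2 cells were counted too. Of 16, none passed in RFP against YFP and 5 were lower at an unadjusted p under 0.05 (9.84% of all genes), with Etv5 at -1.09, Stat3 at -0.55 and Fgfr2 at -0.68. Against Confetti at 2 weeks, Nfia (-1.66, adjusted p = 0.0413) and Etv5 (-2.15, 0.0444) fell in edgeR's quasi-likelihood test and none rose, 2 of 16 genes called beside 5.3% of all genes. Of 15 other AT2 markers, 10 were lower at an unadjusted p under 0.05 in RFP against YFP (9.84% of all genes), none passing the adjusted test (median -0.93). At 2 weeks 3 of the 15 fell against Confetti (5.3% of all genes called): Hc (-2.52), S100g (-2.45) and Bex2 (-3.51), with adjusted p from 0.0413 to 0.0456.

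Markers of other alveolar states were counted in the same way. All 14 transitional markers were higher in RFP than YFP at an unadjusted p under 0.05, none passing the adjusted test (median 1.86), beside 21.6% of all genes in either direction, with Areg at 1.71, Krt18 at 1.46 and Ereg at 4.16. Of the 14, 10 rose against Confetti at 2 weeks in edgeR's quasi-likelihood test, beside 5.3% of all genes called. Of 12 AT1 markers, 10 were tested in RFP against YFP, and 2 were higher at an unadjusted p under 0.05 (Pdpn at 2.10 and Cav1 at 2.23), a share near the 21.6% of all genes. In 2 weeks RFP against Confetti 4 of 11 were higher at an unadjusted p under 0.05 (31.1% of all genes in either direction), and Pdpn rose in edgeR's quasi-likelihood test (5.07, adjusted p = 0.0225), with Akap5 at 3.38 (0.0521). Their part in the levels of the 10 surfactant genes was not tested.

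The genes whose level across the 10 libraries was most like that of Sftpc, among 13772 genes that are not members of the set, were Tmem116 (Pearson r = 0.981), Ldhb (0.980), H2-DMa (0.971), Sh3bgr (0.969) and Zmat4 (0.964), and the most opposite was Gpd2 (-0.975). For the mean of the 10 genes the most alike was Cradd (0.986) and the most opposite Pcbp1 (-0.976). Among the 10 themselves Abca3 and Slc34a2 were the closest pair (0.94), whereas Ctsh ran from -0.59 with Sftpa1 to 0.31 with Sftpb. These are descriptions over 10 libraries in log2 CPM that share their groups.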

How the data were processed

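The authors deposited unnormalized UMI counts for each gene in each barcode, obtained with Cell Ranger on GRCm38 (3.1.0 in the labels, 5.0.1 in the file headers). The labels give chemistry version 2 and the methods version 3. The labels assign no library to either of the 2 days of preparation, so batch could not be fitted. Members and gene lists were chosen with earlier results of these data known.

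Barcodes with under 1000 genes, over 50000 UMIs or over 15% mitochondrial UMIs were removed, as in the study. Counts were scaled to 10000 per cell, and 5000 variable genes, without the 10 members and the lipid synthesis and lamellar body lists, gave 30 components, 20 neighbours and Louvain clusters at resolution 0.8 (scanpy 1.11.5, igraph 0.11.9, Python 3.11.15). Clusters of discarded cell types were left out. Clusters were named from fixed marker lists, with limits set after seeing the clusters (for alveolar states a score of at least 0.25 and at least 1 marker among the 10 leading genes). Every name also needed the highest score, 3 detected markers and no other list with more markers among the 10 leading genes. AT2 was exempt only from the minimum score and from the need for 1 leading marker. Removal of likely doublets (Scrublet scores) was an alternative. Cells are not replicates, so alveolar counts were summed per library and tested with edgeR 4.0.16 (TMM, quasi-likelihood, Benjamini-Hochberg over all genes tested; R 4.3.3). RFP against YFP over both time points used 8 libraries, and all other fits used 10 with 6 groups. DESeq2 1.42.0 was an alternative. The scripts were tested on simulated data. Nothing says that pooled lungs differ between libraries of a group, so p-values measure the spread between these libraries only. A count of 0 to 3 was treated as a floor, and intervals from counts cover counting error only.

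Libraries of the same time and replicate number deviated together after removal of label and time effects (r = 0.333 and 0.267 at 4 days, 0.535 and 0.115 at 2 weeks, over genes). The numbers were therefore taken to pair RFP with YFP, from the data and not from a label. With 2 libraries per group, deviations from group means mirror each other and give the same r for both numbers (0.469 at 4 days, 0.531 at 2 weeks). These values cannot test the pairing, and the block rests on the same counts.

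By the rule for named genes, comparisons name members, not all 10 in each, and up to 3 genes of each list with the smallest p. Of genes alike in pattern, up to 5 of the most and least alike are named. Whether the 1% Sftpc limit matters was tried at 0.5% and 2%, also chosen after seeing the data. Other alternatives were the normalization, the low-count filter, the cell filters, the discarded cells, Confetti as 1 group, depth of thinning and each library left out in turn. Sequences are from RefSeq (GRCm38.p6).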

Additional observations from a re-analysis of the deposited data

Results flagged for a closer look

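Immune cells were discarded from every comparison above. Among those with under 1% Sftpc, Napsa and Ctsh were above both Confetti libraries in both libraries of some Red2Kras groups. The share of all genes that did so in these cells was not counted, so nothing particular to these genes can be read from it. The Confetti values also rest on few cells, with 42 and 25 UMIs of Napsa in 61 and 48 cells. In CPM of those cells, the 4 days libraries had Napsa at 330 and 503 (RFP) and at 204 and 314 (YFP), and the 2 weeks RFP libraries had it at 143 and 288, with a highest Confetti value of 140.04. In the 2 weeks YFP libraries it was at 267 and 70.1, on either side of that value. Ctsh was at 274 and 333 in the 4 days YFP libraries and at 379 and 419 in the 2 weeks RFP libraries, with a highest Confetti value of 247. The 4 days RFP libraries, at 346 and 215, and the 2 weeks YFP libraries, at 290 and 209, lay on both sides of it. The kinds of immune cell in each library were not compared, and their part in these values was not tested. No group held 4 or more libraries, so a library far from its group could not be tested for.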

How the results depend on the processing

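The number of the 10 genes called in RFP against YFP over both time points was 0, and became 4 with DESeq2, 4 with the replicate block, 1 without the low-count filter (beside 1926 of 20578 genes) and 0 to 3 with 1 library left out (3 without 4 days RFP replicate 1). At 2 weeks it was 0, and became 3 with DESeq2 and 1 with the replicate block. In 2 weeks RFP against Confetti it was 1, and became 0 with all barcodes, with the discarded cell types included and with a minimum of 500 genes, 2 with Confetti as 1 group (beside 2132 of 13249 genes) and without the low-count filter (3245 of 20867), 3 with DESeq2 (2217 of 13782) and 0 to 1 with 1 library left out. The causes of these changes were not tested. The block changed no other call in the 6 comparisons among Red2Kras libraries, and was not fitted against Confetti, which has 1 library per colour. For 2 weeks against 4 days within RFP or within YFP cells, it was a replicate-number term shared by both time points. In the other comparisons of library sums no member was called in any of 20 alternatives each. The count of all genes called over both time points went from 0 to 1285 with DESeq2 and 2252 with the block. With raw library totals the median of all genes in that comparison moved from -0.02 to 0.14 and 9 members stayed below 0. The Sftpc share per cell and the share of cells under 1% Sftpc kept the sign of their differences in 14 and 12 alternatives, and the exact sign-flip test among these cannot go below p = 0.125. Leaving out 1 library moved the difference in Sftpc share between -7.72 and -5.28 percentage points. With 4 libraries a group, the exact test cannot go below p = 0.0286, and with 1 Confetti library per colour no spread within those groups was measured.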
